A study of Drosophila melanogaster with 10 samples.

Results

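The ecdysone receptor pair and its early and late target genes were followed in neurons sorted from Drosophila melanogaster embryo cultures. The list held 10 genes: EcR, usp, Eip74EF, Eip75B, Eip78C, Eip93F, br, ftz-f1, Hr3 and Hr4. A gene was measured where a probe set of the array had that gene as its only symbol in the platform annotation. This gave 16 probe sets for 8 genes, out of 18769 tested probe sets and 11983 genes. Eip74EF and Eip75B had no such probe set in the annotation used here and were not analysed here. No probe set of any measured member listed a second gene. Where a gene had several probe sets, the brightest by its mean of the 10 arrays represents it, and the others are given beside it.

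The study compared 2 reporter strains, with 5 samples and 5 arrays each. In the group called Cha, 7.4 kb of Cha regulatory DNA drove a Gal driver that switched on GFP through UAS. In the group called Gad, 2.1 kb of Gad1 regulatory DNA drove RFP directly. Each group was thus defined by a transgene fragment and a sort gate, and the fragments mark cholinergic and GABAergic neurons by intent. In both groups, embryos from adults aged 2 weeks were dissociated as early gastrulae, before neurons had formed. The cells were grown at 25 C for 5 to 7 days (the growth protocol says up to 8) and sorted by fluorescence. No agent is named in the labels, so the cultures were not labelled as treated with steroid, and no array of unsorted or reporter-negative cells was used here. Replicate arrays are separate samples in the labels, which do not say whether they came from separate cultures. Every p-value below is thus set against the spread among these arrays, and that spread may be technical. Cha replicate 2 and Gad replicate 5 carry the same letter code in their descriptions, whose meaning is not stated there.

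Ecdysone is the steroid that times moulting and metamorphosis in insects. Its receptor is a pair of nuclear receptors, EcR, which binds the steroid, and Ultraspiracle (usp), its partner. The bound pair switches on early genes, among them br, Eip74EF, Eip75B, Eip78C and Eip93F, which encode transcription factors. These and the later nuclear receptor genes Hr3, Hr4 and ftz-f1 then pass the signal on in waves that stage-specific genes follow. In the fly nervous system the pathway is known from the pruning and regrowth of larval neurons and from the timing of neuronal fates.

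The deposited values are on the log2 scale after RMA, and each difference is Cha minus Gad on that log2 scale. Array medians over the whole table lay between 5.68 and 5.75. Between arrays, r over all tested probe sets was 0.971 to 0.99 within Cha, 0.989 to 0.997 within Gad, and 0.954 to 0.983 between the groups. A probe set is called dim on an array where it lies at or under percentile 40 of that array, a level between 4.75 and 4.84. This is a working line and not a detection call. Levels of different probe sets depend on their probes, so they were not ranked against each other. In bulk samples, fewer cells of a type and less RNA per cell cannot be told apart. Neither transmitter gene behind the reporters passed the threshold between the groups. ChAT averaged 11.39 ± 0.44 in Cha and 10.71 ± 0.39 in Gad (SD, n = 5 each, limma adjusted p = 0.0788). Gad1 averaged 12.49 ± 0.30 in Cha and 12.37 ± 0.19 in Gad (SD, n = 5 each, limma adjusted p = 0.646). All 9 measured neuronal markers lay above the dim line on at least 5 arrays, elav among them. Of these, 6 were higher in Cha (66.7%, against 7.84% of all genes) and 0 in Gad (against 9.85% of all genes). The count higher in Cha was 4 to 7 in fits that left out 1 array, and 3 in a fit that blocked on replicate number.

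None of the 8 measured ecdysone genes differed between Cha and Gad past the threshold. In limma with Benjamini-Hochberg adjustment over all tested probe sets, 0 of 8 genes and 0 of 16 probe sets had an adjusted p under 0.05. The same rule called 17.7% of all 11983 genes, with 7.84% higher in Cha and 9.85% higher in Gad. Of all probe sets it called 14.2%, with 6.68% higher in Cha and 7.48% higher in Gad. Among genes above the dim line on at least 5 arrays, 0 of 5 members passed, against 22.7% of all such genes. At an unadjusted p under 0.05 the limma fit gave 1 of the 8 genes, Hr3, against 32.9% of all genes and 27.8% of all probe sets. An exact 2-sided permutation test over the arrays gave 1 of the 8, Hr4, against 30.2% of all genes. The arrays of the groups overlapped in 8 of 8 genes and 16 of 16 probe sets, while 13.5% of all genes and 11.4% of all probe sets had groups that did not overlap. The median difference of the 8 genes was 0.04, and that of all genes was also 0.04. Their median size without sign was 0.12, against 0.20 over all genes, with median standard errors of 0.11 and 0.13. With 8 genes, these shares describe the list and were not tested against the rest of the array.

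**Figure D1:**
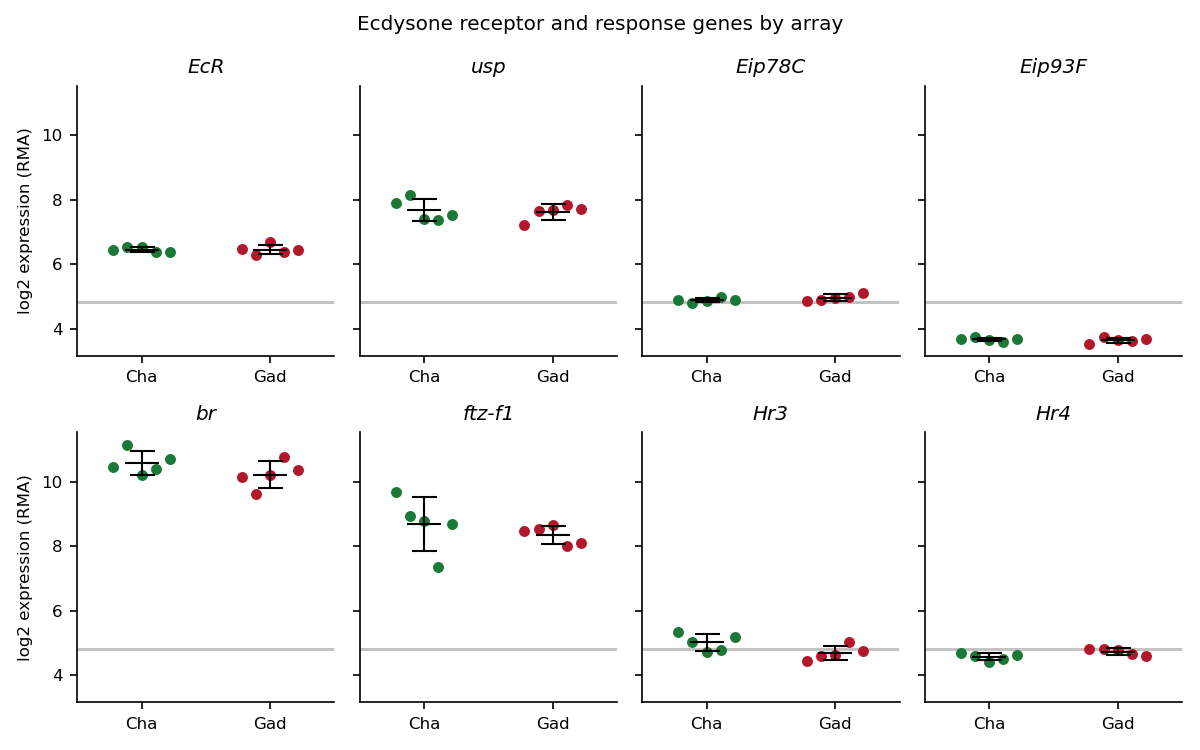
Log2 expression (RMA, y axis) of the 8 measured ecdysone genes on the 5 Cha arrays (green, left) and the 5 Gad arrays (red, right); points are arrays in replicate order, black marks are means ± SD, and the grey band is the percentile 40 of the arrays (4.75 to 4.84). In all 8 panels the groups overlap, and Eip93F lies under the band on all 10 arrays.

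The receptor gene EcR had the smallest difference of the 8 genes. It stood at 6.45, 6.53, 6.52, 6.38 and 6.38 in the 5 Cha arrays, against 6.47, 6.29, 6.68, 6.38 and 6.43 in the 5 Gad arrays. The Cha arrays fell wholly inside the range of the Gad arrays. The means were 6.45 ± 0.07 in Cha and 6.45 ± 0.15 in Gad (SD, n = 5 each). The difference of 0 had a 95% interval of -0.19 to 0.19, or 0.879 to 1.14-fold (limma adjusted p = 0.992). A change of EcR larger than 1.14-fold in either direction is thus outside the interval. The SD of EcR was at percentile 4.92 of all probe sets over the Cha arrays and at percentile 48 over the Gad arrays. Its 1 probe set, 1632796_s_at, carries the suffix that marks probes shared between transcripts, and no isoform of the receptor could be read from it.

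Its partner usp varied more from array to array. It stood at 7.90, 8.16, 7.41, 7.38 and 7.51 in the Cha arrays, against 7.21, 7.65, 7.68, 7.84 and 7.70 in the Gad arrays. The lowest array was Gad replicate 1 and the highest were Cha replicates 2 and 1, and of the 7 arrays between them the 3 Cha arrays lay below the 4 Gad arrays. The means of 7.67 ± 0.34 in Cha and 7.62 ± 0.24 in Gad (SD, n = 5 each) differed by 0.06 (95% interval -0.32 to 0.43, limma adjusted p = 0.87). In fold terms the interval ran from 0.802 to 1.35. The sign of this small difference turned in fits that lacked Cha replicate 2 (-0.07) or Gad replicate 1 (-0.05), and the difference was 0 in the fit that lacked Cha replicate 1.

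The early gene br, or Broad, encodes a family of zinc finger proteins that differ by splicing and set pupal fate. Its brightest probe set, 1635691_at, read 10.47, 11.15, 10.20, 10.40 and 10.70 in the Cha arrays, against 10.16, 9.61, 10.22, 10.77 and 10.37 in the Gad arrays. Cha replicate 2 was the highest array and Gad replicate 2 the lowest, and the other 8 arrays overlapped. The difference of 0.36 was the largest of the 16 probe sets, and its 95% interval ran from -0.13 to 0.84 (0.915 to 1.8-fold, limma adjusted p = 0.327). Leaving out single arrays moved it between 0.20 and 0.49, with the lowest adjusted p at 0.167. The mean over the 5 br probe sets differed by 0.13.

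Of the other 4 br probe sets, 2 lay above the dim line on all 10 arrays and 2 were dim on all 10. Probe set 1626996_s_at averaged 6.23 ± 0.60 in Cha and 6.06 ± 0.25 in Gad, and 1637312_a_at averaged 5.52 ± 0.55 in Cha and 5.31 ± 0.22 in Gad (SD, n = 5 each). Neither difference passed the threshold (0.17 and 0.22, limma adjusted p = 0.712 and 0.606). Without Cha replicate 2 they were 0.01 and -0.01. The Cha arrays disagreed with each other over these probe sets. Cha replicate 2 was the highest Cha array on all 3 brighter probe sets. Cha replicate 4 was the lowest on 1626996_s_at, at 5.42, and the second highest on 1637312_a_at, at 5.52. The 2 dim probe sets, 1629683_at and 1636931_at, differed by 0 and -0.12 (limma adjusted p = 0.995 and 0.502). The annotation used here does not tie the probe sets to zinc finger isoforms.

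**Figure D2:**
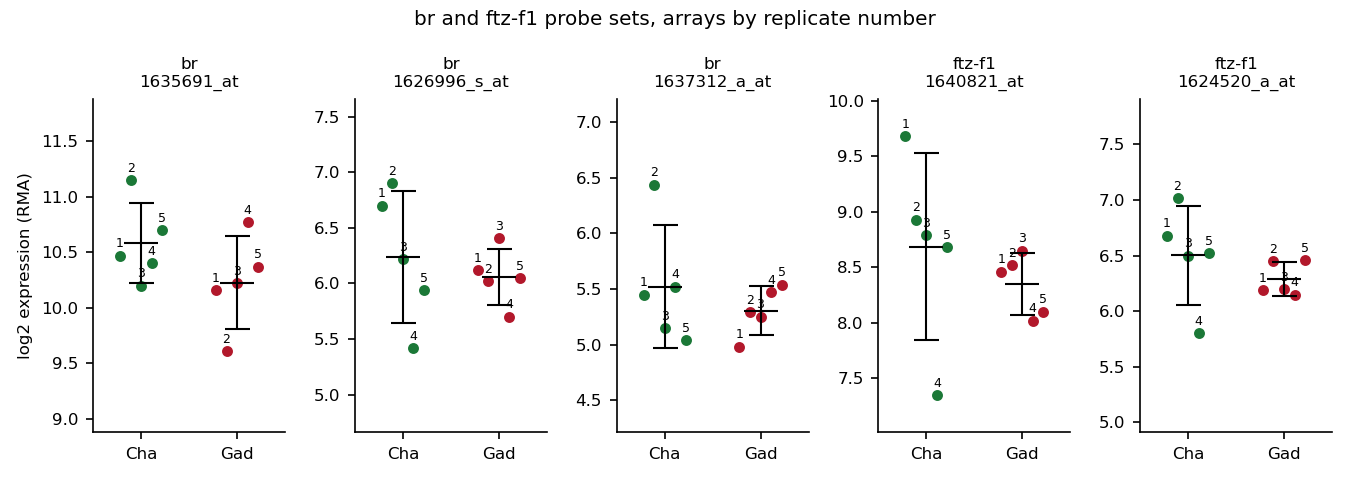
Log2 expression (RMA, y axis, each panel spanning the same number of log2 units) of the br and ftz-f1 probe sets that lay above the dim line on all 10 arrays, Cha arrays in green on the left and Gad arrays in red on the right, numbered by replicate, with means ± SD in black. Cha replicate 2 tops the Cha arrays in 4 of the 5 panels and Cha replicate 4 is the lowest of them in 3.

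Eip78C and Eip93F, the other early genes measured, lay close to or under the dim line. Eip78C encodes a nuclear receptor of the early response. It stood at 4.80 to 4.97 with a median of 4.87 in the Cha arrays, against 4.86 to 5.11 with a median of 4.96 in the Gad arrays. It lay above the line on 4 Cha arrays and 5 Gad arrays. The difference of -0.08 had a 95% interval of -0.24 to 0.08 (limma adjusted p = 0.509). Eip93F encodes a helix-turn-helix factor known from steroid-triggered cell death and from the change to adult programmes. Its 2 probe sets were dim on all 10 arrays, with 1635485_at at 3.59 to 3.73 in Cha and 3.53 to 3.73 in Gad. They differed by 0.02 and -0.07 (limma adjusted p = 0.857 and 0.737). RMA compresses differences of dim probe sets, so these small values bound little about the transcripts.

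The later genes Hr3 and Hr4 encode nuclear receptors that act between the early genes and ftz-f1. Hr3 stood at 5.33, 5.02, 4.73, 4.79 and 5.18 in the Cha arrays, against 4.45, 4.59, 4.62, 5.04 and 4.75 in the Gad arrays. It lay above the dim line on 3 Cha arrays and 1 Gad array, and Gad replicate 4 was higher than 3 of the Cha arrays. The difference of 0.32 (95% interval 0.01 to 0.63) had an unadjusted limma p of 0.0449 and an adjusted p of 0.168. The exact permutation p was 0.0714. This is the only interval of the 16 that did not include 0, before adjustment. Over the alternatives and the fits that lacked 1 array the difference stayed between 0.24 and 0.41, with no adjusted p below 0.0788.

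Hr4 leaned the other way on its brightest probe set. Probe set 1641392_at read 4.68, 4.59, 4.40, 4.51 and 4.63 in the Cha arrays, against 4.81, 4.81, 4.77, 4.65 and 4.59 in the Gad arrays. It was dim on 9 of the 10 arrays, and the highest Cha array lay above the lowest 2 Gad arrays. The difference was -0.16 (95% interval -0.34 to 0.02, limma adjusted p = 0.223). The exact permutation test gave p = 0.0476 for a difference of 5 against 5 arrays, and 0.286 after Benjamini-Hochberg adjustment over the 8 genes. The other 2 probe sets were dim on all 10 arrays and differed by -0.07 and 0.06 (limma adjusted p = 0.622 and 0.605).

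**Figure D3:**
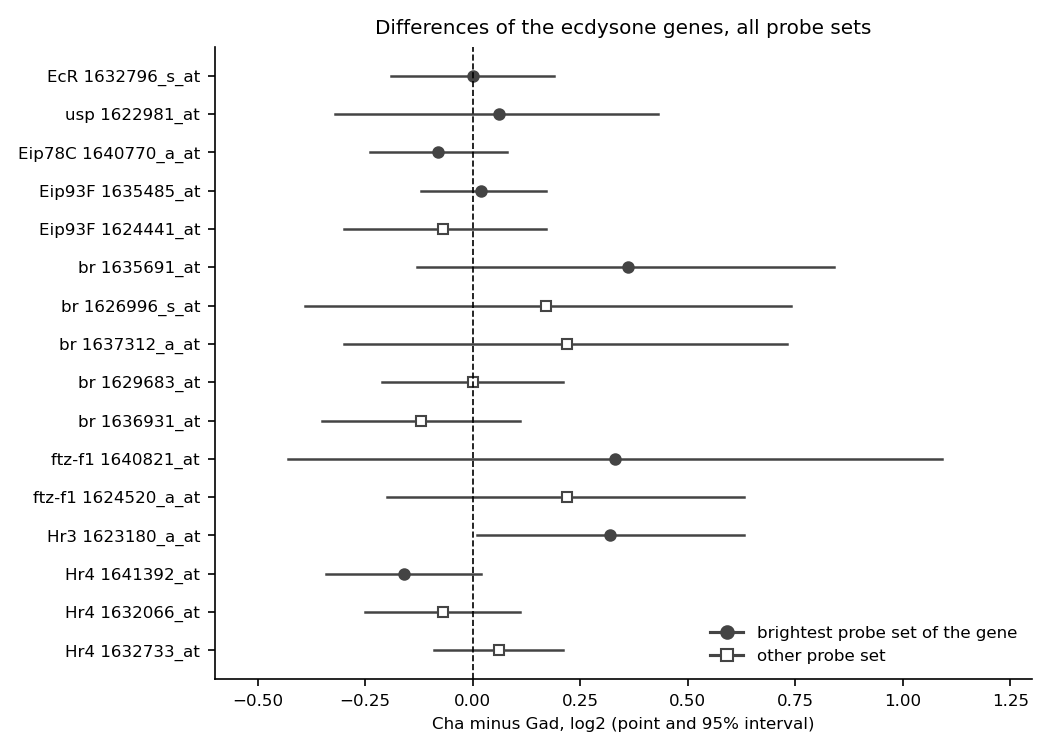
Difference Cha minus Gad on the log2 scale (x axis) of the 16 ecdysone probe sets, one per row, with limma 95% intervals; filled circles are the brightest probe set of a gene and open squares the others. Of the 16 intervals, 15 include 0, and that of Hr3 runs from 0.01 to 0.63.

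ftz-f1 encodes a nuclear receptor that makes tissues competent for the next steroid pulse and is needed for mushroom body pruning. Its brightest probe set, 1640821_at, read 9.68, 8.93, 8.79, 7.35 and 8.68 in the Cha arrays, against 8.46, 8.52, 8.65, 8.02 and 8.10 in the Gad arrays. The other 4 Cha arrays all lay above the 5 Gad arrays, while Cha replicate 4 lay below them. The means were 8.68 ± 0.84 in Cha and 8.35 ± 0.27 in Gad (SD, n = 5 each). The difference of 0.33 had a 95% interval of -0.43 to 1.09, the widest of the 16, or 0.744 to 2.14-fold (limma adjusted p = 0.584). Without Cha replicate 4 it was 0.67, with a limma adjusted p of 0.0549.

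The second ftz-f1 probe set, 1624520_a_at, had the same low array. It read 6.68, 7.02, 6.50, 5.80 and 6.52 in the Cha arrays, against 6.19, 6.45, 6.20, 6.15 and 6.46 in the Gad arrays. Here too Cha replicate 4 was the lowest of the 10 arrays, and the other 4 Cha arrays lay above all 5 Gad arrays. The difference of 0.22 (95% interval -0.20 to 0.63, limma adjusted p = 0.511) was 0.39 without that array (limma adjusted p = 0.0586). Neither probe set passed the threshold in any fit. The array of Cha replicate 4 was not set aside in the counts above, since no label marks it as different.

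The spread of ftz-f1 over the Cha arrays was among the widest on the array. Its SD of 0.84 in Cha was at percentile 97.6 of all probe sets, against 0.27 and percentile 84.2 in Gad. The br probe set 1626996_s_at had an SD of 0.60 in Cha (percentile 93.5), against 0.25 in Gad (percentile 81.7). The median SD of the whole array was 0.211 for Cha and 0.149 for Gad. These are descriptions of 5 arrays a group, and the difference in spread was not tested.

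Within the groups, the members did not all move together from array to array. After each group mean was removed, r over the 10 arrays was 0.13 for EcR and usp (rho 0.20), and 0.18 without the 2 farthest arrays. These 2 are the arrays farthest from the median of the first gene named in a pair, whatever the second gene does. For usp and Hr3 it was 0.65 (rho 0.75), with 0.54 among the Cha arrays and 0.82 among the Gad arrays, and 0.78 without the 2 farthest arrays. For br and Hr3 it was 0.55 (rho 0.61), with 0.36 in Cha and 0.74 in Gad, and 0.71 without the 2 farthest arrays. For ftz-f1 and Hr3 the values within the groups had opposite signs, with 0.69 in Cha and -0.79 in Gad. The highest r of all pairs was 0.67 (rho 0.53), for usp and Eip93F, a gene dim on all 10 arrays. It was 0.81 in Cha, 0.63 in Gad and 0.38 without the 2 farthest arrays. For usp and br r was 0.57 (rho 0.64). These points share their arrays and normalization, 28 pairs were computed, and no pair is more than a description.

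The genes most like each receptor gene were sought among 8934 other genes that lay above the dim line on at least 5 arrays. By r over the 10 arrays after removal of the group means, those most like EcR were Adgf-C, an adenosine deaminase-related growth factor gene (0.90), GstT4, a glutathione S-transferase gene (0.89), and GluRIIB, a glutamate receptor subunit gene (0.89). These 3 were themselves lower in Cha than in Gad, by -0.75, -0.59 and -1.36 (limma adjusted p = 0.0255, 0.0132 and 0.000529), unlike EcR. Those most like usp were CG8170 (0.98), CG1172 (0.97) and CG16711 (0.95), and of these CG8170 differed between the groups, by 1.79 (limma adjusted p = 0.00527). An r over 0.8 was reached by 22 genes for EcR and 152 for usp. The best of so many candidates over 10 arrays is high by selection, so these names describe the arrays only.

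Among genes that make, carry and clear the steroid, several passed the threshold. Of 12 such genes measured, 4 passed the threshold and all 4 were lower in Cha than in Gad, or 33.3%, against 9.85% of all genes in that direction. The list median was -0.31. Cyp18a1 encodes the cytochrome P450 that inactivates ecdysteroids. It read 7.61, 6.84, 6.51, 6.65 and 7.74 in the Cha arrays, against 9.10, 9.30, 9.17, 8.44 and 8.64 in the Gad arrays, and the groups did not overlap. The difference was -1.86 (SE 0.27, limma adjusted p = 0.00168), and a second probe set gave -1.53 (limma adjusted p = 0.00227).

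The other 3 concern transport and the last step of synthesis. E23, an ecdysone-induced transporter gene of the ABC class, read 5.93 to 6.92 in Cha with a mean of 6.45, against 7.07 to 7.46 in Gad with a mean of 7.25 (difference -0.80, limma adjusted p = 0.00908). shd, whose product turns ecdysone into its active form, averaged 6.14 ± 0.21 in Cha and 6.82 ± 0.26 in Gad (SD, n = 5 each, difference -0.68, limma adjusted p = 0.00984). A second, dim shd probe set differed by 0.04. Oatp74D, the ecdysone importer gene, averaged 8.54 ± 0.21 in Cha and 9.03 ± 0.21 in Gad (SD, n = 5 each, difference -0.49, limma adjusted p = 0.029). The groups overlapped in none of the 4. A fit that blocked on replicate number ended the Oatp74D call (limma adjusted p = 0.0755). Oatp74D lost its call when Cha replicate 3 or Gad replicate 1, 3 or 5 was left out (limma adjusted p = 0.0517 to 0.0789), or both arrays of the shared letter code (0.0676), and the shd call with the mean of its probe sets (-0.32, limma adjusted p = 0.0632).

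The synthesis genes upstream of shd gave no call. Of the 12 genes, 4 were dim on all 10 arrays, among them the Halloween genes nvd, spo and spok. sad and phtm, named after their values were seen, differed by -0.52 and -1.42 (limma adjusted p = 0.0529 and 0.104). phtm read 5.76 to 8.43 in Cha, lowest in replicate 4, against 7.76 to 9.46 in Gad. It passed in a fit that blocked on replicate number (limma adjusted p = 0.0239). sad passed without Cha replicate 1 (-0.60, limma adjusted p = 0.0336) or Gad replicate 4 (-0.64, limma adjusted p = 0.0141), and under 6 of the 11 alternatives.

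**Figure D4:**
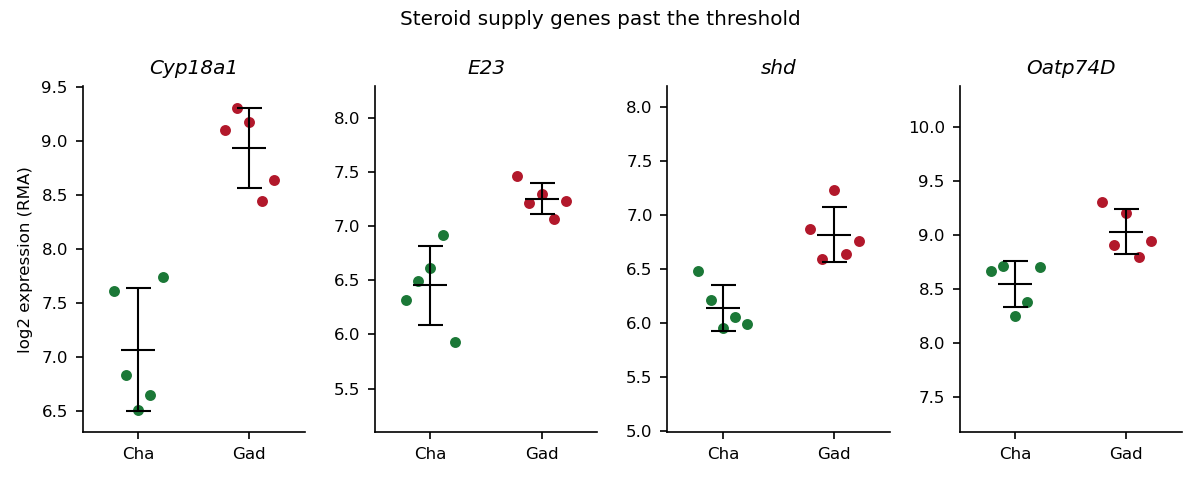
Log2 expression (RMA, y axis, each panel spanning the same number of log2 units) of the 4 steroid supply genes past the threshold, 5 Cha arrays in green on the left and 5 Gad arrays in red on the right, with means ± SD in black. In each panel the highest Cha array lies below the lowest Gad array.

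Markers of several other cell types moved in the same direction as these 4 genes, while those of hemocytes split. Of 7 measured fat body markers, 4 were lower in Cha (57.1%, against 9.85% of all genes) and 0 higher (against 7.84% of all genes). Their summed level (log2 of the summed linear values) was 11.53 to 13.90 in Cha and 14.02 to 14.99 in Gad. Of 6 epithelial markers, 3 were lower in Cha (50%), with sums of 11.08 to 11.83 in Cha and 12.17 to 12.65 in Gad. Of 10 glial markers, 5 were lower in Cha (50%), with sums of 12.60 to 12.97 in Cha and 13.09 to 13.57 in Gad. RMA values have no 0. Of the defining markers, repo averaged 7.89 ± 0.47 in Cha and 8.76 ± 0.21 in Gad (SD, n = 5 each, limma adjusted p = 0.0181), and wrapper was dim on all 10 arrays. The markers with the smallest p in the 3 lists were Obp99a (-3.82), Cht2 (-0.91) and Cyp4g15 (-1.15), with limma adjusted p = 9.38e-05, 0.00712 and 0.00382. The part of these markers in the result was not tested. Of the other marker lists, 5 of 7 genes of dividing cells (71.4%), 3 of 8 neuroblast genes (37.5%) and 4 of 6 muscle genes (66.7%) were lower in Cha and 0 higher. Among 10 hemocyte genes, 1 was lower (10%, against 9.85% of all genes) and 2 were higher (20%, against 7.84% of all genes). The lower one was srp (-1.73, limma adjusted p = 0.00195). The higher ones were PPO1 (3.39, limma adjusted p = 0.000229) and PPO2 (1.73, limma adjusted p = 0.00167). In fits that left out 1 array, the counts lower in Cha were 3 to 5 for fat body, 5 to 6 for glia, and 1 to 3 for epithelium, with 1 when Cha replicate 2 or 3 or Gad replicate 3 was absent. They were 3 to 5 for neuroblasts, with 5 when Cha replicate 4 was absent, 4 to 5 for dividing cells, and 1 to 2 for hemocytes, with 2 when Cha replicate 1, 3 or 5 or Gad replicate 1 was absent. For muscle they were 1 to 6, with 1 when Gad replicate 3 was absent and 2 when Cha replicate 1, 3 or 5 or Gad replicate 4 or 5 was. Blocking on replicate number gave counts lower in Cha of 3 for fat body, 5 for glia and 1 for epithelium. It gave 1 for neuroblasts, 3 for dividing cells, 2 for muscle and 1 for hemocytes.

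Of genes that work with or beside the receptor, few passed. Of 7 genes in this list, 1 was higher in Cha (14.3%, against 7.84% of all genes) and 0 in Gad, with a median of 0.38. The 1 call was DopEcR, which is not a cofactor of EcR and usp. The other 6, the cofactor and partner genes, gave no call. DopEcR, the membrane receptor gene that responds to dopamine and ecdysone, read 7.28 to 8.39 in Cha with a mean of 7.95, against 5.59 to 7.16 in Gad with a mean of 6.47. The groups did not overlap, and the difference was 1.48 (SE 0.28, limma adjusted p = 0.00648). The corepressor gene Smr and the coactivator gene tai, named after their values were seen, differed by 0.39 and -0.06 (limma adjusted p = 0.114 and 0.783). Leaving out Cha replicate 4 gave 3 calls, and leaving out Cha replicate 1 gave 2.

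Other genes known from steroid induction split. Of 31 measured, 4 were higher in Cha (12.9%, against 7.84% of all genes) and 2 in Gad (6.45%, against 9.85%), with a median of 0.06, and 13 were dim on all 10 arrays. Cth, listed under its older name Eip55E and encoding an enzyme of cysteine synthesis, averaged 9.68 ± 0.13 in Cha and 10.46 ± 0.21 in Gad (SD, n = 5 each, difference -0.78, limma adjusted p = 0.00156). Sgs7, a salivary glue protein gene, averaged 10.57 ± 0.56 in Cha and 9.31 ± 0.32 in Gad (difference 1.27, limma adjusted p = 0.00868). The groups overlapped in neither. The other glue genes measured, named after their values were seen, differed by -0.05 to 0.22 and gave no call. Of them, Sgs1, Sgs3 and Sgs4 were dim on all 10 arrays, while Sgs8 lay above the line on 2 arrays and Sgs5 on 10. Eip63E, a kinase gene, was higher in Cha (0.42, limma adjusted p = 0.0217), and Blimp-1, a repressor that delays ftz-f1, was lower in Cha (-0.67, limma adjusted p = 0.022). The other 2 calls, named after their values were seen, were vri (0.69, limma adjusted p = 0.029) and ImpE2 (1.06, limma adjusted p = 0.0384). Eip63E lost its call when Cha replicate 2 or Gad replicate 2 was left out (limma adjusted p = 0.0514 and 0.0562). Blimp-1 lost its call when Cha replicate 3 or Gad replicate 3 or 5 was left out (limma adjusted p = 0.0525 to 0.0602). The vri call was lost on leaving out Cha replicate 2 or 3 or Gad replicate 1, 2, 3 or 5 (limma adjusted p up to 0.0704). The ImpE2 call was lost on leaving out Cha replicate 1, 3 or 4 or Gad replicate 1, 2, 3 or 4 (limma adjusted p up to 0.0949). Leaving out both arrays of the shared letter code ended the calls of Eip63E, Blimp-1 and vri (limma adjusted p = 0.0952, 0.0931 and 0.109). Cyclic loess ended that of Eip63E (0.37, limma adjusted p = 0.0679), and array weights that of ImpE2 (0.93, limma adjusted p = 0.059). Blocking on replicate number ended the calls of Eip63E, Blimp-1, vri and ImpE2 (limma adjusted p = 0.0577, 0.11, 0.0662 and 0.129).

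Of the 14 other nuclear receptor genes, 1 was higher in Cha and 1 in Gad, with a median of -0.01. Each share was 7.14%, below the 7.84% of all genes higher in Cha and the 9.85% higher in Gad. tll, a repressor known from neural stem cells, read 4.83 to 5.53 in Cha with a mean of 5.16, against 6.58 to 7.29 in Gad with a mean of 6.84 (difference -1.68, limma adjusted p = 0.000265). Hr51, needed for axon regrowth in mushroom body neurons, averaged 6.95 ± 0.34 in Cha and 6.28 ± 0.08 in Gad (SD, n = 5 each, difference 0.67, limma adjusted p = 0.0122). The groups overlapped in neither. Hr51 lost its call when both arrays of the shared letter code were left out (0.66, limma adjusted p = 0.0595). Hr38, a nuclear receptor gene induced by neuronal activity and named after its values were seen, differed by 1.18 with a 95% interval of 0.27 to 2.09 and overlapping groups (limma adjusted p = 0.0839), while its other probe set differed by -0.15. It passed without Cha replicate 1 or Gad replicate 5 (limma adjusted p = 0.0419 and 0.0496). Leaving out Cha replicate 4 gave 3 calls for Cha, and leaving out Cha replicate 1 or Gad replicate 5 gave 2.

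In lists of neuronal remodelling, cell death and juvenile hormone genes, 1, 1 and 0 genes were higher in Cha (9.09%, 20% and 0%, against 7.84% of all genes). In the same lists 2, 0 and 2 were higher in Gad (18.2%, 0% and 25%, against 9.85% of all genes). Of 11 genes known from remodelling and timing of neurons, chinmo was higher in Cha (0.51, limma adjusted p = 0.0325), while put, a receptor gene of the TGF-beta family (-0.77, limma adjusted p = 0.0144), and the RNA-binding protein gene Syp (-1.10, limma adjusted p = 0.0313) were lower. Sox14, an EcR target in pruning neurons, differed by -0.03 (95% interval -0.33 to 0.28, limma adjusted p = 0.929) and was named after its values were seen. Of 5 measured cell death genes, skl was higher in Cha (0.99, limma adjusted p = 0.0224). Of 8 genes measured in the juvenile hormone list, Jhedup (-0.61, limma adjusted p = 0.0115) and Jheh2 (-0.76, limma adjusted p = 0.0387) were lower in Cha. Jhedup was dim on all 5 Cha arrays. Jhe, named after its values were seen, was dim on all 10 arrays and differed by -0.06 (limma adjusted p = 0.711). The list medians were -0.03, -0.06 and -0.22. The other chinmo probe sets differed by 0.11 and, on a dim one, 0.30, and the other Syp probe set by -0.36. Calls were lost for Syp on leaving out Cha replicate 1, 2 or 3 or Gad replicate 1, 3 or 5, for chinmo on leaving out Cha replicate 2, 3 or 5 or Gad replicate 1, 2 or 3, and for Jheh2 on leaving out any array but Cha replicate 3 or 5 or Gad replicate 4 (limma adjusted p up to 0.0719, 0.0721 and 0.0869). skl lost its call when Gad replicate 2 or 3 was left out (limma adjusted p = 0.0566 and 0.0603). Leaving out both arrays of the shared letter code ended the calls of Syp, chinmo, Jhedup and Jheh2 (limma adjusted p = 0.132, 0.102, 0.0658 and 0.15). The chinmo call also ended under cyclic loess (0.45, limma adjusted p = 0.0587) and with the mean of its probe sets (0.31, limma adjusted p = 0.124). Blocking on replicate number ended the calls of skl, Syp, chinmo and Jheh2 (limma adjusted p = 0.0708, 0.0691, 0.109 and 0.106).

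**Figure D5:**
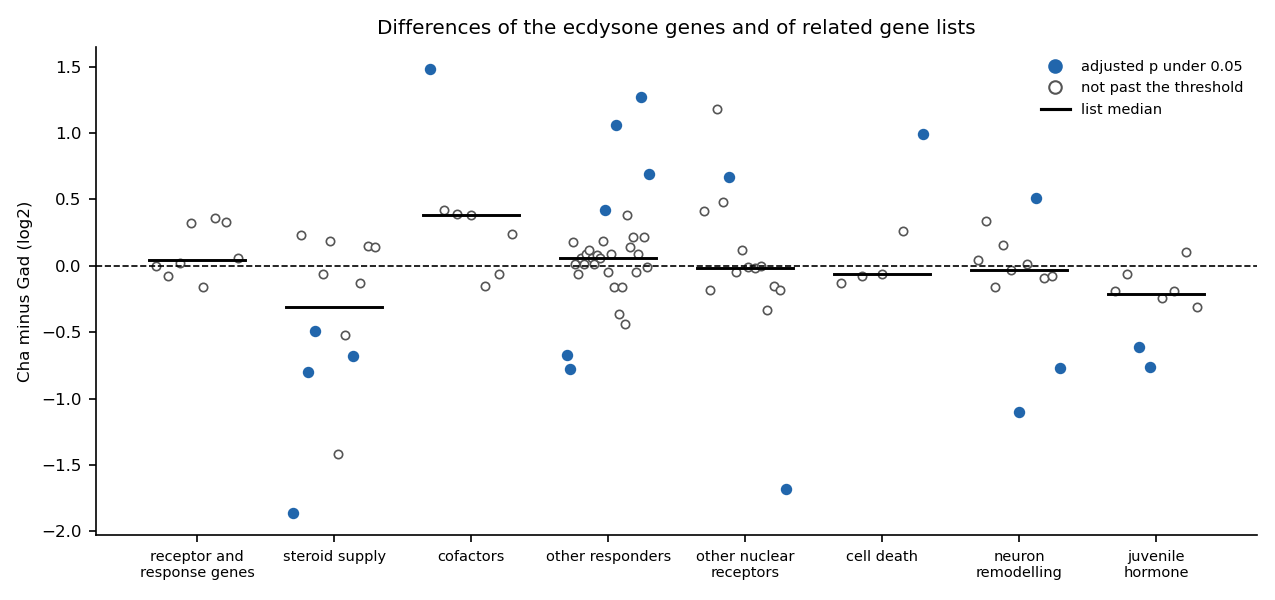
Difference Cha minus Gad on the log2 scale (y axis) of each measured gene in the ecdysone list and in 7 related lists (x axis); filled points passed the threshold (limma adjusted p under 0.05), open points did not, and black bars are list medians. The 8 receptor and response genes lie between -0.16 and 0.36 with no filled point, and the 4 filled points of the steroid supply list all lie below 0.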

How the data were processed

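The authors deposited 1 table of log2 expression values, made with RMA per the submitters' processing notes. The RMA version is not given in the sources used here. The method brings all arrays to 1 distribution, so a shift shared by most genes is removed. All 10 columns carried sample accessions, and groups and replicate numbers came from the titles. Of 18952 probe sets, 183 controls were left out, and 13647 of the rest had 1 symbol. Entrez identifiers matched to the Release 6 gene table changed 0 symbols. For the differences, lmFit and eBayes of limma 3.58.1 (R 4.3.3) were run 2-sided and with no covariates, with Benjamini-Hochberg adjustment over all 18769 probe sets and a threshold of 0.05. Single values were compared by exact permutation, whose smallest p with these arrays is 0.00794. The number of arrays limits the precision. The fit was tested on simulated data.

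The members and lists were chosen with earlier results of these data known. In each related list, up to 4 genes past the threshold with the smallest p were named, or up to 2 where none passed, and of the markers up to 3. In each list genes were matched by symbol, and older names by the gene table, the Eig71E genes among them. Alternatives covered normalization, dim probe sets, the variance prior, array weights, a replicate block, the probe sets of a gene, the adjustment, the threshold, the 2 arrays that share a letter code, and each single array.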

Additional observations from a re-analysis of the deposited data

Results flagged for a closer look

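Of 32 groups of 5 arrays examined over the 16 ecdysone probe sets, 1 held an array far from the others. On the Eip93F probe set 1624441_at, Gad replicate 1 read 3.14 and the nearest Gad array 3.48, a gap of 0.729 of the range, past the limit of 0.71. Chance alone flags about 1 in 20 such groups. The probe set was dim on all 10 arrays.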

How the results depend on the processing

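No ecdysone gene passed in either direction (0 and 0) under any of the 11 alternatives or with any 1 of the 10 arrays absent. The alternative threshold of 0.01 could not add a call where 0.05 gave none. The fit without dim probe sets left out Eip93F, Hr3 and Hr4, so it says nothing of them. The lowest adjusted p of any member probe set in these fits was 0.0549. Of the 16 probe sets, 11 kept the sign of their difference. The other 5 turned in some fit. Their differences as reported were 0 to 0.06 for 4 of them and 0.22 for br (1637312_a_at). Eip93F (1635485_at) was -0.01 with a second quantile normalization, -0.02 with cyclic loess and -0.02 with averaged probe sets. The br probe set 1629683_at was 0.02 with median centring and 0.04 with array weights. With both arrays of the shared letter code absent, EcR was -0.02 and usp -0.05. Leaving out single arrays gave -0.04 to 0.06 for EcR, -0.07 to 0.13 for usp, 0 to 0.05 for Eip93F (1635485_at), -0.04 to 0.06 for br (1629683_at) and -0.01 to 0.33 for br (1637312_a_at).

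Deviations of same-numbered arrays correlated at -0.368 to 0.0338. The labels do not say whether same-numbered samples were handled together, and these correlations cannot show it. With the replicate block, 0 and 0 members passed, as without it, and 1366 of all probe sets passed against 2657. With both arrays of the shared letter code absent, 1235 passed. The median difference of all probe sets was 0.047 as deposited and 0.008 after cyclic loess. The brightest probe set of Eip93F lay near the bottom of the arrays (mean percentile 5.48). Those of Hr4, Hr3 and Eip78C lay close to the dim line (mean percentiles 37.1, 40.3 and 41.9). Such low signal limits what the values of these genes can show.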
